A study of Mus musculus with 6 samples.

Results

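Hepatic amino acid transporters are the membrane proteins through which liver cells take up, release and move amino acids between compartments. The 10 genes described here were chosen by symbol from the 55487 genes of the deposited tables: Slc38a2, Slc38a3, Slc38a4, Slc7a2, Slc7a5, Slc3a1, Slc3a2, Slc43a1, Slc16a10 and Slc25a22. Liver RNA from male mice of strain C57/Bl6J kept on a high-fat diet (HFD) had been sequenced in 6 poly(A)-selected libraries. The 3 control libraries came from mice whose genotype label is Alb cre +/-, a Cre recombinase transgene under the promoter of the albumin gene, a hepatocyte gene, and their titles read WT. The 3 mutant libraries came from mice labelled RXRa f/f Alb cre+/-, which carry the same transgene, and the design text names an Rxra S65A mutant. The titles of the mutant libraries read Cre. By the genotype labels both groups carry the Cre transgene, whereas the titles set WT against Cre, and the sources used here do not settle which holds. The diet label is the same for both groups. Gene-level values cannot show which form of Rxra the transcripts encode. The labels give no ages and do not say that different libraries came from different animals, and the p-values measure only the spread between these libraries, which may be technical.

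The liver takes up amino acids from portal blood for protein synthesis, for glucose production and for disposal of their nitrogen as urea. System A carriers move small neutral amino acids together with sodium, system N carriers move glutamine and histidine in exchange for protons, and cationic amino acid transporters supply arginine, ornithine and lysine. Heteromeric transporters pair a light chain, which forms the transport path, with a heavy chain that brings it to the plasma membrane. Uniporters for large neutral and aromatic amino acids let substrates leave or enter along their gradient, and mitochondrial carriers pass glutamate to the matrix, where its nitrogen enters the urea cycle.

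The start sites of the members are shown because 7 of them were measured higher together in the mutant livers. RefSeq promoter entries (GRCm38.p6) were matched by symbol for 7 of the 10 members, with 11 start sites among them. Slc38a3, Slc7a2 and Slc7a5 are named only. The windows below hold the 250 bases upstream of a RefSeq start, 5′ to 3′ on the strand of the gene, and capitals mark matches to the motifs searched. Slc38a2 and Slc16a10 stand for members called higher, Slc38a4 for an abundant one, here at the most upstream of its 3 starts, and Slc3a1 for a member that did not pass.
Slc38a2, chr15:96699729-96699978, minus strand: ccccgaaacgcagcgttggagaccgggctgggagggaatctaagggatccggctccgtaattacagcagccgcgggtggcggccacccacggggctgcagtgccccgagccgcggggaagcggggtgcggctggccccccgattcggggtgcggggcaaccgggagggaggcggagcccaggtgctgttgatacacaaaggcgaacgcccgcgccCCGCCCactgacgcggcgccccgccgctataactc
Slc16a10, chr10:40142255-40142504, minus strand: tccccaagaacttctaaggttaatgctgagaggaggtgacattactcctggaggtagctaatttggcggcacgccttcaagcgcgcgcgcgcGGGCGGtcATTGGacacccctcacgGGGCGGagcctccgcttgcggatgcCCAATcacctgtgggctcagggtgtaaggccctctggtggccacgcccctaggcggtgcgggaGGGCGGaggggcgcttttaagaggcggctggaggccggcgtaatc
Slc38a4, chr15:97055957-97056206, minus strand: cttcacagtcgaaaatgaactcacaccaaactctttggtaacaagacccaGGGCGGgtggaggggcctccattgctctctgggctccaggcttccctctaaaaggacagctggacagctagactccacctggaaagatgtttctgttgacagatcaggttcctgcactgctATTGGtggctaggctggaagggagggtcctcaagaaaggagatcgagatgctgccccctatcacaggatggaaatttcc
Slc3a1, chr17:85028097-85028346, plus strand: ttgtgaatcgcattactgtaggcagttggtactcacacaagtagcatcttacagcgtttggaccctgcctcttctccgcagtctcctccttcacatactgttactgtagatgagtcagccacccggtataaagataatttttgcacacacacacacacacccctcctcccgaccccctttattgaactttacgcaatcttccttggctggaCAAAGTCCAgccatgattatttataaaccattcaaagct

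These windows differ in base composition. The Slc38a2 window is 72.0% G and C with 30 CpG dinucleotides and that of Slc16a10 is 64.4% with 21, whereas the Slc38a4 window is 52.8% with 3 and that of Slc3a1 is 45.6% with 6. Over all 32817 windows of this length the medians are 52.4% and 6. Both strands were searched. The GC box GGGCGG, a site for Sp1-type factors, is in 9 of the 11 member windows and in 32.7% of all windows. Slc25a22 and Slc38a4 each supply more than 1 of the 11, so the windows are not independent. Some windows run over annotated exons, with 250 exon bases in 1 of Slc25a22, 169 in that of Slc3a2 and 124 in that of Slc43a1. The CCAAT box (CCAAT) is in 5 of the 11 and in 33.8% of all, and an element of the HNF4 type, CAAAGTCCA, is in 1 of the 11, that of Slc3a1 at 39 bases before the start, and in 0.384% of all. None of the 11 windows holds the core of the amino acid response element bound by ATF4 with C/EBP factors (TGATGNAA, 3.45% of all windows), the cAMP response element (TGACGTCA, 1.55%), the strict DR1 repeat of nuclear receptors such as RXR heterodimers (0.0335%) or a STAT5-type element (TTCNNNGAA, 7.01%). The windows hold only bases upstream of a start, so sequence downstream of it, introns included, was not covered by these counts. The lack of a match in a window therefore cannot show that a gene lacks the element. GC box matches can overlap each other, and all matches given here are matches of letters, not measured binding.

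Per transcript length, the members spanned a wide range of levels. TPM (a share of all transcripts, scaled by gene length) allows genes to be compared within a library. Slc38a3, the system N carrier SNAT3, had the highest mean in the controls with 566 ± 35.6 TPM, followed by Slc38a4, the system A carrier SNAT4 of liver, with 493 ± 64.4 TPM (SD, n = 3 each). The ranges of this pair overlapped in both groups. Between 72.2% and 79.1% of the summed TPM of the 10 members came from these 2 genes in each library. Slc25a22, a mitochondrial glutamate carrier, had 131 ± 11.7 TPM and Slc7a2, the cationic amino acid transporter CAT2, 71.2 ± 8.61 TPM in the controls, each apart from its neighbours in the order. The next 4, Slc3a2, Slc3a1, Slc38a2 and Slc16a10, lay between 19.2 and 31.4 TPM in the control libraries, and each overlapped the next. Slc43a1 (1.10 ± 0.441 TPM) and Slc7a5 (0.939 ± 0.227 TPM) were the lowest and overlapped, so these 2 were scarce in control liver. In the mutant livers Slc3a2 overlapped Slc3a1 and lay below Slc38a2 and Slc16a10, and Slc43a1 (2.37 to 6.32 TPM) stood apart above Slc7a5 (0.349 to 0.700 TPM).

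**Figure D1:**
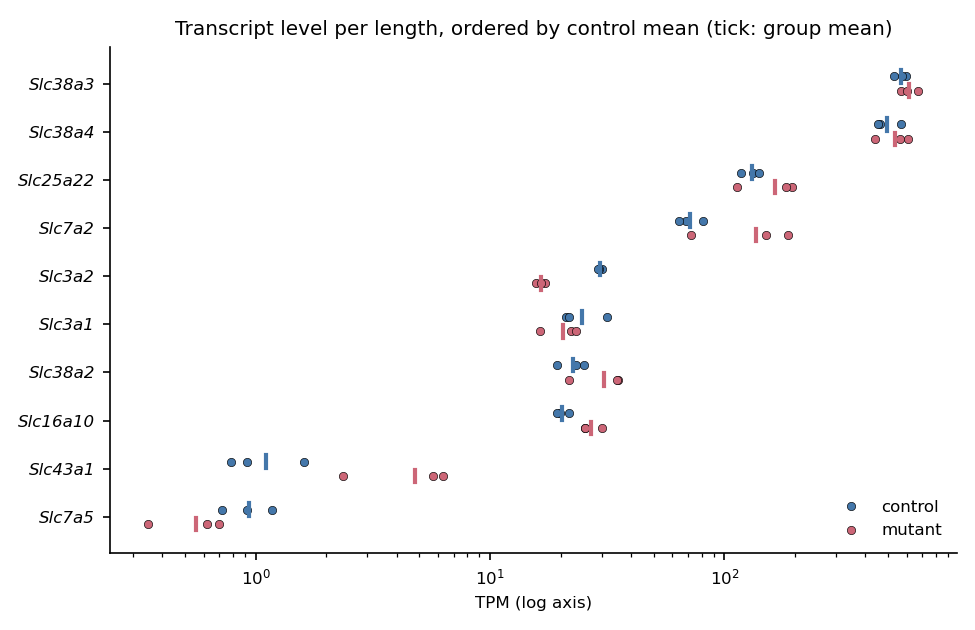
TPM of each transporter on a log axis, ordered by control mean, with a point per library and a tick at the mean of each group (n = 3). Slc38a3 and Slc38a4 lie highest and overlap each other, and Slc43a1 and Slc7a5 lie lowest.

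Depth did not differ much between libraries, but composition did. Totals were 35847386 to 43162557 estimated counts. The targeted gene, Rxra, was still counted in the mutants at 700, 522 and 609 CPM against 501, 471 and 414 CPM in the controls, a difference of 0.40 ± 0.13 on the log2 scale that missed the threshold (edgeR adjusted p = 0.0724) and was -0.20 in log2(TPM + 1). Rxra was called higher in DESeq2 (adjusted p = 0.0295), in edgeR without mutant replicate 2 (0.0388) and in edgeR with no filter (0.0356). The major urinary protein genes, abundant products of male hepatocytes, took 1.85% to 3.09% of the counts in the controls and 12.8% to 16.9% in the mutants. CPM (estimated counts scaled to a common library size) were therefore scaled by TMM, a factor per library that sets the typical gene equal, and all changes under it are relative to that gene. Over all genes, the median difference was -0.40 on the log2 scale against library totals and -0.48 in log2(TPM + 1). Summed hepatocyte markers (6 found of 7) were 69010 to 81405 CPM in the controls and 72781 to 81002 CPM in the mutants, ranges that overlapped and were mostly albumin (Alb, 50356 to 62775 CPM in the controls). Of these 6, 2 rose and 1 fell: Hnf4a (0.67 on the log2 scale, edgeR adjusted p = 0.00597), Apoa1 (0.53, 0.00962) and Cyp3a11 (-3.08, 0.00171). Of 9 macrophage markers 4 fell and of 6 stellate cell markers 5 fell, with summed levels of 198 to 260.1 against 87.1 to 165 CPM and 140.2 to 155 against 50.1 to 69.4 CPM. Of 5 endothelial markers 2 fell, and their sums overlapped (76.0 to 136 against 57.8 to 84.3 CPM). Of 5 cholangiocyte markers 1 rose (Sox9) and 1 fell (Spp1). Their sums were lower in the mutants (62.7 to 91.5 against 32.0 to 47.3 CPM), while their median log2 fold change was 0.07. Of 7 lymphocyte markers 1 rose and 0 fell, and their sums overlapped (4.05 to 4.68 against 3.77 to 5.39 CPM). All these marker counts, those of hepatocytes included, stand beside 6.64% of all tested genes called higher and 6.82% lower. In bulk liver, fewer cells of a type and less RNA per cell cannot be told apart. The 4 markers of kidney, a tissue rich in Slc3a1, summed to at most 0.193 CPM, with Kap and Slc12a1 at 0 counts, and the 4 pancreas markers to at most 0.837 CPM, with Cpa1 and Pnlip at 0.

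The question asked of each member was whether its transcript differed between mutant and control livers. Of the 10 transporters, 7 rose and 0 fell in the mutants, and 3 did not pass (edgeR quasi-likelihood test, adjusted p under 0.05 over all 14286 tested genes). All 10 passed the filter on low counts. Among all tested genes, 6.64% were called higher and 6.82% lower (13.5% in all). The members were chosen with earlier results of these data known, so their share is a description and not independent evidence. The median log2 fold change was 0.81 over the members and 0.00025 over all tested genes. Control and mutant libraries were fully separated in CPM for 8 of the 10 members, 7 above and 1 below the controls, and for 34.9% of all tested genes (17.4% above and 17.5% below). In TPM, 2 members were separated above (Slc43a1 and Slc16a10) and 2 below (Slc3a2 and Slc7a5), beside 1.88% and 69.9% of the 11567 genes with at least 1 TPM in 3 libraries, 71.8% in all. Slc7a5 is under that minimum and so is not among those genes.

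**Figure D2:**
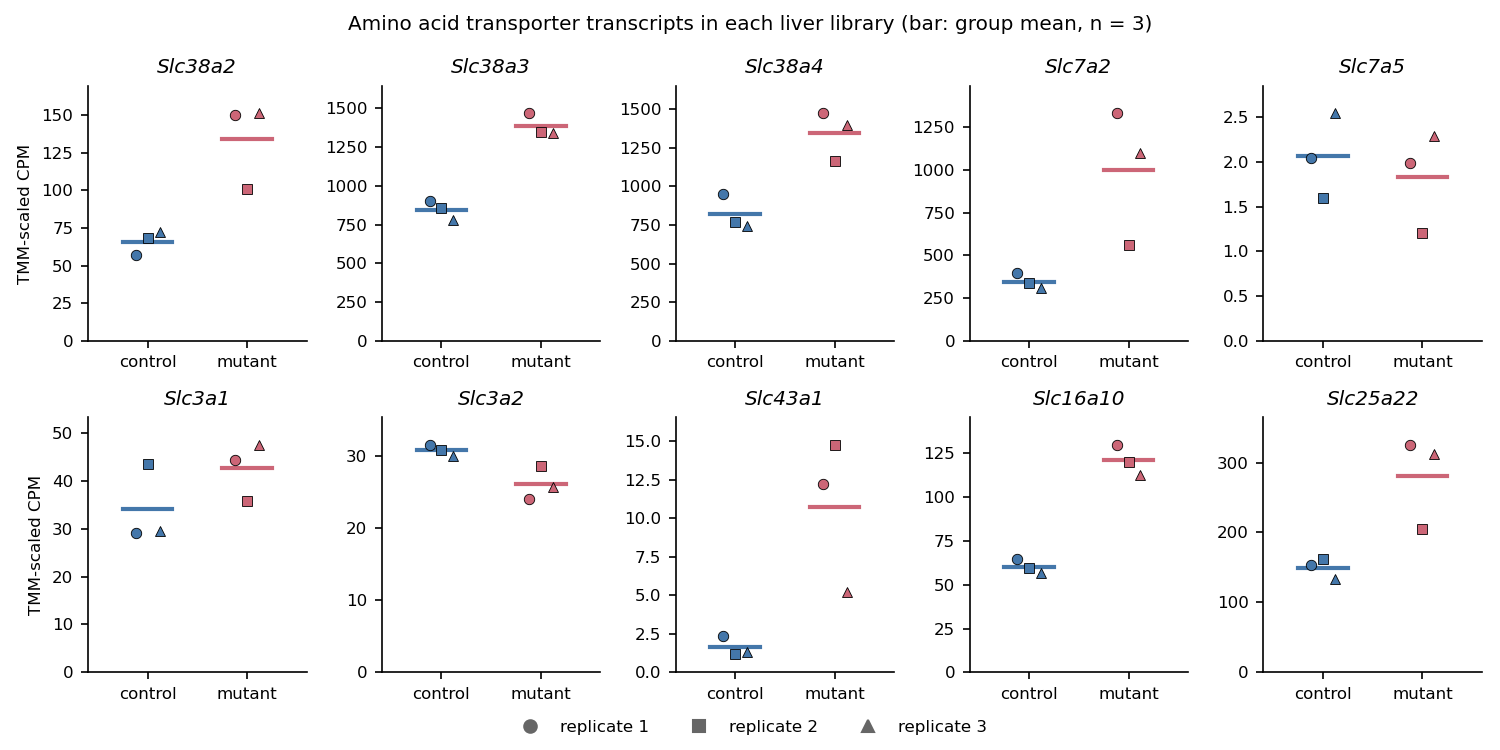
TMM-scaled CPM of the 10 transporters, with a panel per gene starting at 0, a point per library and a bar at the mean of each group (n = 3). In 7 panels all mutant libraries lie above all controls, in that of Slc3a2 they lie below, and those of Slc7a5 and Slc3a1 overlap.

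The sodium-coupled neutral carriers rose together. Slc38a2 encodes SNAT2, the system A carrier known to be induced when amino acids run short, and had 56.8, 68.3 and 72.6 CPM in the controls and 149.9, 101 and 151 CPM in the mutants, here and below in the order of replicates 1, 2 and 3. All mutant libraries were above all controls, and mutant replicate 2 was the lowest of them. The rise was 2.03-fold (log2 fold change 1.02 ± 0.17 SE, edgeR adjusted p = 0.00794). Slc38a2 is a gene of chromosome 15 (mm10, 96687392 to 96699730, minus strand). Slc38a4, on the same strand of that chromosome (96994820 to 97055956), is separated from it by 295.1 kb, counted between the nearest ends of the 2 genes.

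Slc38a3 had 899.7, 860.1 and 779.7 CPM in the controls and 1469, 1351 and 1339.8 CPM in the mutants. The spread within each group was small against the gap between them. It rose 1.64-fold (0.71 ± 0.10 on the log2 scale, edgeR adjusted p = 0.00307). Its gene lies on chromosome 9 (107650634 to 107669530). Slc38a4 had 952, 770.4 and 746 CPM in the controls and 1472, 1163 and 1399 CPM in the mutants, again without overlap and with mutant replicate 2 lowest. Its rise was 1.63-fold (0.71 ± 0.13, edgeR adjusted p = 0.0122), and the call was lost without control replicate 2 (adjusted p = 0.0512).

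The cationic amino acid transporter Slc7a2 rose more than the SNAT genes on average, but unevenly. Its levels were 396, 337 and 308 CPM in the controls and 1330.3, 561 and 1098 CPM in the mutants. Mutant replicate 2 stood closer to the controls than to the other mutants. The group means were 347 ± 44.6 and 996 ± 395 CPM (SD, n = 3), a 2.87-fold rise (1.52 ± 0.28, edgeR adjusted p = 0.0113). Slc7a2 spans 40862396 to 40922308 of chromosome 8. The annotation lists 5 protein-coding transcripts, which gene-level values do not separate, although liver is known for a low-affinity splice form of CAT2. An antisense lincRNA, Gm26584, shares 635 exon bases with it, and strandedness of the libraries is not given in the sources used here.

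Both facilitated carriers of large neutral and aromatic amino acids rose. Slc16a10, the aromatic amino acid uniporter TAT1, had 64.8, 59.3 and 56.5 CPM in the controls and 129.8, 119.95 and 113 CPM in the mutants. No library strayed from its group, and the rise of 2.01-fold had the smallest p of the 10 members (1.01 ± 0.10, edgeR adjusted p = 8.95e-04). Its gene is on chromosome 10 (40033532 to 40142258). Slc43a1, the branched-chain and aromatic amino acid uniporter LAT3, had 2.37, 1.17 and 1.33 CPM in the controls and 12.2, 14.8 and 5.19 CPM in the mutants. Those values rest on 51.8 to 109 estimated counts per control library and 161 to 476 per mutant library. Its log2 fold change was the largest of the members, 6.59-fold (2.72 ± 0.43, edgeR adjusted p = 0.00646), with mutant replicate 3 at less than the other mutants. Slc43a1 lies on chromosome 2 (84838850 to 84863594).

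Slc25a22 encodes the mitochondrial glutamate carrier GC1 and was the one member of the inner mitochondrial membrane. It had 153, 162 and 133 CPM in the controls and 325, 205 and 312 CPM in the mutants. As for Slc38a2 and Slc7a2, mutant replicate 2 was the lowest mutant library but still above every control. The rise was 1.88-fold (0.91 ± 0.17, edgeR adjusted p = 0.0133). Its gene lies on chromosome 7 (141429744 to 141437892).

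The heavy chains and the light chain Slc7a5 did not pass. Slc3a2 encodes the heavy chain 4F2hc (CD98) and had 31.5, 30.7 and 29.9 CPM in the controls and 23.9, 28.5 and 25.6 CPM in the mutants. All mutant libraries were below all controls, yet the log2 fold change of -0.24 ± 0.11 did not pass (95% interval -0.49 to 0.0083, edgeR adjusted p = 0.186). Slc3a1, the heavy chain rBAT of the cystine and dibasic amino acid transporter, had 29.1, 43.4 and 29.5 CPM in the controls and 44.4, 35.8 and 47.5 CPM in the mutants. The groups overlapped, with control replicate 2 high and mutant replicate 2 low, and the log2 fold change was 0.32 ± 0.18 (95% interval -0.09 to 0.74, edgeR adjusted p = 0.279), and -0.25 in log2(TPM + 1). Slc3a1 (chromosome 17, 85028376 to 85064236) shares 601 exon bases with Prepl on the other strand, so part of its counts may belong to that gene.

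Slc7a5 encodes LAT1, a light chain for large neutral amino acids that dividing cells use. It had 2.05, 1.59 and 2.54 CPM in the controls and 1.99, 1.21 and 2.29 CPM in the mutants, and the groups overlapped. Its counts were 39.4 to 113 per library, and the interval of its log2 fold change, -0.99 to 0.65, leaves room for a change of either sign (-0.17 ± 0.36, edgeR adjusted p = 0.803). Slc3a2 (chromosome 19, 8706882 to 8723369) and Slc7a5 (chromosome 8, 121881150 to 121907694) form 1 heteromer.

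Levels of the partner chains were low beside those of the heavy chains. Slc7a9, the light chain known to pair with Slc3a1, had 0 counts in the 3 controls and about 2 estimated counts in each of mutant replicates 1 and 3 (1.99 in both), while Slc3a1 had at least 1154 counts in every library. The 6 light chains known to pair with Slc3a2 (Slc7a5, Slc7a6, Slc7a7, Slc7a8, Slc7a10 and Slc7a11) summed to 7.72, 6.56 and 6.91 TPM in the controls and 2.92, 2.41 and 3.12 TPM in the mutants. Slc3a2 alone had 30.0, 29.3 and 29.0 TPM in the controls and 15.7, 17.2 and 16.5 TPM in the mutants. Both the heavy chain and its summed partners were lower in TPM in every mutant library than in any control, as were 69.9% of all genes with enough TPM, and the median shift of all genes in log2(TPM + 1) was -0.48. Under TMM the difference of Slc3a2 was -0.24 and did not pass. Single partners did not pass in edgeR after TMM scaling: Slc7a7 (3.88 ± 0.607 to 1.91 ± 0.823 CPM, adjusted p = 0.09999) and Slc7a8 (6.61 ± 1.59 to 3.09 ± 1.21 CPM, adjusted p = 0.0545) had lower means. Slc7a6 had 2.88 CPM in mutant replicate 2 and at most 0.359 CPM in the other 5 libraries, so its log2 fold change of 1.73 (adjusted p = 0.363) came from 1 library and was -1.29 without it.

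The calls depended on scaling in a graded way. With library totals in place of TMM, 5 of the 10 were called higher (2.05% of all genes) and Slc3a2 was called lower (31.6% of all genes). Slc38a4 (0.31, adjusted p = 0.1002) and Slc25a22 (0.52, adjusted p = 0.0533) no longer passed in edgeR, and Slc3a2 had a log2 fold change of -0.64 (adjusted p = 0.00394). With library totals that leave out the major urinary protein genes, all 7 were called higher again (2.82% of all genes) and Slc3a2 was still lower (13.7% of all genes). In limma on log2(TPM + 1), Slc7a2, Slc43a1 and Slc16a10 were called higher (1.88% of all genes) and Slc3a2 lower (63.6% of all genes). There Slc38a3 had 0.12 (adjusted p = 0.293) and Slc38a4 0.11 (adjusted p = 0.495), and for both the TPM of the groups overlapped. Relative to the median of all genes, the log2 fold change of Slc38a3 was 0.71 under TMM, 0.71 at library totals and 0.60 in TPM, and that of Slc3a2 was -0.24, -0.24 and -0.32. TMM and library totals differ only by a factor per library, so their near match follows by construction. The TPM differ from the counts only by gene and library factors. These values are therefore not independent evidence, and in TPM they also depend on the pseudocount. With a pseudocount of 0.1 Slc7a2, Slc43a1 and Slc16a10 were again higher (1.82% of all genes, 63.2% lower). Without the minimum on TPM only Slc43a1 and Slc16a10 were (0.833%, 28.0% lower). In the other fits, with 7 members higher each, the share of all genes called higher was 6.61% with RLE size factors, 4.76% with no filter, 7.58% with a CPM filter, 7.86% in DESeq2, 6.89% in the robust fit and 5.42% with a replicate block. Leaving out 1 library gave 6 members without control replicate 2 and 7 otherwise, beside 3.11%, 3.18% and 3.16% of all genes for the controls and 2.87%, 4.64% and 5.10% for the mutants. Slc16a10 and Slc43a1 were called higher under TMM and under all 17 alternatives.

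**Figure D3:**
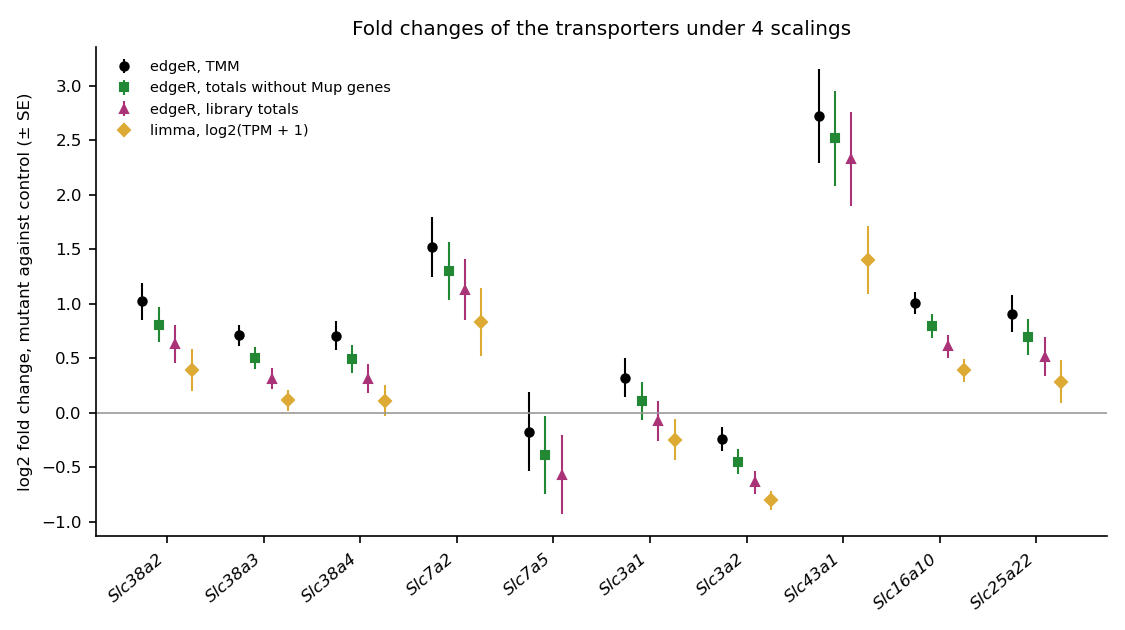
Log2 fold change of each transporter, mutant against control, with its standard error under 4 scalings (Slc7a5 is under the TPM minimum of the limma fit). All 7 transporters called higher under TMM have values above 0 in all 4, Slc38a3 and Slc38a4 come nearest to 0 in TPM (0.12 and 0.11), and Slc3a2 lies below 0 in all 4.

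Ratios between members within a library do not depend on the scaling of that library. Of 6 ratios in TPM, only that of Slc7a2 to Slc7a5 separated the groups, with 87.5, 95.6 and 54.5 in the controls and 303, 207 and 216 in the mutants (3.10-fold higher, two-sided exact permutation p = 0.1, the smallest that 3 against 3 allows, 0.45 after adjustment over the 6). Slc38a4 to Slc38a3 was 0.870 ± 0.0734 in the controls and 0.869 ± 0.0862 in the mutants (mean and SD of 3 libraries, exact permutation p = 1.0), values that differed by less than the spread between libraries. With 3 against 3 libraries no such test can pass 0.05, so its p says nothing on whether the proportion was kept. The ratio of Slc38a3 to Slc38a2 was 25.5 ± 5.02 in the controls and 20.8 ± 4.69 in the mutants, and that of Slc38a4 to Slc38a2 was 22.3 ± 6.09 and 17.8 ± 2.09 (exact permutation p = 0.3 for each). Those of Slc3a1 to Slc3a2 (0.841 ± 0.202 and 1.26 ± 0.264, exact permutation p = 0.2) and of Slc7a5 to Slc3a2 (0.0319 ± 0.00799 and 0.0340 ± 0.0120, exact permutation p = 0.9) also overlapped.

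The mutant libraries were not alike. Mutant replicate 2 had the lowest CPM of the 3 mutants in 4 of the 7 members called higher (Slc38a2, Slc38a4, Slc7a2 and Slc25a22), and mutant replicate 3 in the other 3. The summed level of 16 enzymes of glutamine, glutamate, alanine and arginine use went with the first pattern, at 19886 and 20531 CPM in mutant replicates 1 and 3 and 13647 CPM in mutant replicate 2, against 8020.2 to 8342 CPM in the controls. Summed periportal hepatocyte genes were 17936, 12166 and 18619 CPM in mutant replicates 1 to 3 and 5373 to 5929 CPM in the controls. Sds, Gls2, Cps1, Ass1, Asl and Arg1 are in both groups, so these sums are not independent. The part of these groups in the transporters' differences was not tested. Slc43a1 had its highest value in mutant replicate 2, so this library was not low for every member.

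**Figure D4:**
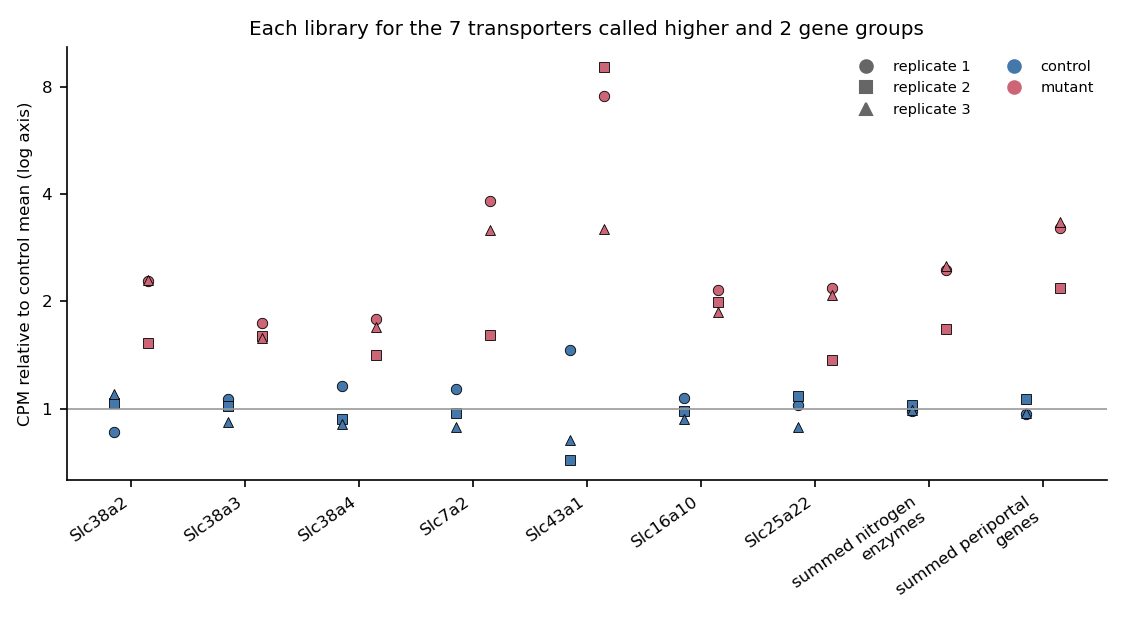
CPM of each library relative to the control mean, on a log axis, for the 7 transporters called higher and for 2 summed gene groups, with a marker shape per replicate number. Mutant replicate 2 (red squares) is the lowest mutant library for Slc38a2, Slc38a4, Slc7a2, Slc25a22 and both groups, and the highest for Slc43a1. The 2 groups share genes and are not independent.

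Genes with the most similar pattern were sought for the 3 members of highest mean TPM, by Pearson's r of log2 CPM over the 6 libraries among 7361 other genes with a mean of at least 10 CPM. Since the groups differ, the gap between them carries most of each r, which is given as a description. For Slc38a3 the nearest were Fbxo31, an F-box protein gene (r = 0.997), Por, the reductase that feeds electrons to cytochromes P450 (r = 0.996), and Slc16a10 itself (r = 0.996). Fbxo31 and Por rose by log2 fold changes of 1.58 and 1.66 (edgeR adjusted p = 0.00100 and 0.00164). For Slc38a4 the nearest was Selenos, a selenoprotein gene of the endoplasmic reticulum (r = 0.995, log2 fold change 0.42, edgeR adjusted p = 0.0334, but -0.18 in log2(TPM + 1)). For Slc25a22 they were Rgl3 (r = 0.995), which did not pass (0.20, edgeR adjusted p = 0.251), and Got1, the cytosolic aspartate transaminase (r = 0.995), which rose by 2.39 on the log2 scale (edgeR adjusted p = 0.00408).

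Other plasma membrane amino acid transporters did not move as the 10 members did. Of 29 listed, 15 were tested, 2 rose, 2 fell and 11 did not pass, with a median log2 fold change of -0.17 beside 6.64% and 6.82% of all genes. At library totals 0 rose and 6 fell, and in log2(TPM + 1) 0 rose and 7 of 12 fell. Over all genes 2.05% rose and 31.6% fell at library totals, and 1.88% and 63.6% in log2(TPM + 1). The glutamate transporter Slc1a2, known for pericentral hepatocytes, had 214, 139.9 and 162 CPM in the controls and 256, 289.7 and 261 CPM in the mutants, and rose by 0.64 on the log2 scale (edgeR adjusted p = 0.0300). Slc6a12, a carrier of betaine and GABA, rose by 0.67 (edgeR adjusted p = 0.0271). Either call was lost at library totals (adjusted p = 0.229 and 0.1995) and on leaving out any of 5 of the 6 libraries, the exceptions being control replicate 1 for Slc1a2 and mutant replicate 2 for Slc6a12 (adjusted p = 0.0533 to 0.0932 and 0.0633 to 0.0906).

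The 2 that fell were scarce. Slc7a1, the cationic amino acid transporter CAT1 of most other tissues, had 1.59, 1.10 and 1.28 CPM in the controls and 0.419, 0.279 and 0.451 CPM in the mutants, opposite in direction to its relative Slc7a2. Slc38a1, which lies 44.5 kb from Slc38a2 on chromosome 15, had 2.05, 3.05 and 1.93 CPM in the controls and 1.02, 0.403 and 0.806 CPM in the mutants. The log2 fold changes were -1.78 and -1.65 (edgeR adjusted p = 0.0357 and 0.0417), and both calls were lost on leaving out any 1 library (adjusted p = 0.0642 to 0.137 and 0.0637 to 0.136). Slc43a2, the relative of Slc43a1, had a lower mean in the mutants that did not pass (12.6 ± 5.79 to 5.77 ± 0.549 CPM, adjusted p = 0.0636). Macrophage and stellate cell markers were lower in the same libraries, as given above, and their part in these decreases was not tested.

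Of 12 listed mitochondrial amino acid carriers, 10 were tested, 6 rose, 0 fell and 4 did not pass, with a median log2 fold change of 0.54, beside 6.64% and 6.82% of all genes. At library totals 3 rose and 1 fell (2.05% and 31.6% of all genes). In log2(TPM + 1) 1 of 9 rose and 2 fell (1.88% and 63.6% of all genes). Without control replicates 1, 2 or 3 the number that rose was 3, 2 and 3, and without mutant replicates 1, 2 or 3 it was 3, 5 and 3. Slc25a13, the aspartate-glutamate carrier citrin, had 269.6, 226 and 241 CPM in the controls and 399, 418 and 381 CPM in the mutants (0.70 ± 0.10, edgeR adjusted p = 0.00359). Slc25a15, the ornithine carrier of the urea cycle, rose from 179 ± 8.74 to 350.03 ± 93.8 CPM (0.96 ± 0.18, edgeR adjusted p = 0.0136), a call lost without control replicate 1 (adjusted p = 0.0507) or control replicate 2 (adjusted p = 0.0525). Sfxn2, a sideroflexin, rose by 0.60 and Slc25a29, a carrier of basic amino acids, by 1.26 (edgeR adjusted p = 0.00963 and 0.0237), the latter lost whenever a library other than mutant replicate 2 was left out (adjusted p = 0.0525 to 0.0818). Slc25a44, which carries branched-chain amino acids, did not pass (0.16, edgeR adjusted p = 0.311). In TPM none of Slc25a13, Slc25a15 and Sfxn2 was called by limma (log2 fold changes of 0.10, 0.33 and 0.0048).

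Of 8 tested lysosomal amino acid transporters, 0 rose, 2 fell and 6 did not pass, with a median of -0.10, beside 6.64% and 6.82% of all genes. At library totals 5 fell (31.6% of all genes) and in log2(TPM + 1) 6 fell (63.6% of all genes). Slc36a4, an amino acid carrier, and Mfsd12, a lysosomal cysteine importer, had log2 fold changes of -0.75 and -0.46 (edgeR adjusted p = 0.0456 and 0.0463). Both calls were lost on leaving out any 1 library (adjusted p = 0.0541 to 0.139 and 0.0694 to 0.137).

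Enzymes that use the transported amino acids rose in 14 of 16 cases, with 0 lower and 2 not passed, and had a median of 1.07, beside 6.64% and 6.82% of all genes. At library totals 9 rose and 1 fell (2.05% and 31.6% of all genes). In log2(TPM + 1) 9 rose and 2 fell (1.88% and 63.6% of all genes). The glutaminase Gls2, the argininosuccinate lyase Asl, the alanine transaminase Gpt and the carbamoyl phosphate synthetase Cps1 had the smallest p, with log2 fold changes of 1.76, 2.06, 0.85 and 2.17 (edgeR adjusted p = 4.18e-04, 5.85e-04, 9.08e-04 and 9.51e-04). Arg1, the arginase that splits arginine to urea and ornithine, is named here after its values were seen. It had 646, 669 and 593 CPM in the controls and 1709, 1229 and 1649 CPM in the mutants, a rise of 1.26 on the log2 scale (edgeR adjusted p = 0.00118).

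Genes of the amino acid stress response and of amino acid sensing mostly did not pass. Of 16 tested genes of the ATF4 response, 1 rose, 0 fell and 15 did not pass, with a median of 0.0055, beside 6.64% and 6.82% of all genes. At library totals 1 rose and 2 fell (2.05% and 31.6% of all genes). In log2(TPM + 1) 1 of 13 rose and 9 fell (1.88% and 63.6% of all genes). Asns, the asparagine synthetase and a textbook target of ATF4, was the one that rose, from 1.92, 1.44 and 2.36 CPM in the controls to 45.2, 15.8 and 23.4 CPM in the mutants (3.89 ± 0.40, edgeR adjusted p = 0.00103). Atf4 itself did not pass (-0.20, edgeR adjusted p = 0.209). Of 15 tested genes of amino acid sensing at mTORC1, 0 rose and 2 fell, with a median of -0.18, beside the same shares of all genes. At library totals 8 fell (31.6% of all genes), and in log2(TPM + 1) 9 of 14 fell (63.6% of all genes). The 2 that fell under TMM were the GTPase Rragd and the sestrin Sesn3, at log2 fold changes of -1.61 and -0.49 (edgeR adjusted p = 0.0269 and 0.0377). Rragd was lost without control replicate 1, control replicate 2 or mutant replicate 1 (adjusted p = 0.0781 to 0.0877), and Sesn3 without any library except mutant replicate 3 (adjusted p = 0.0670 to 0.126).

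**Figure D5:**
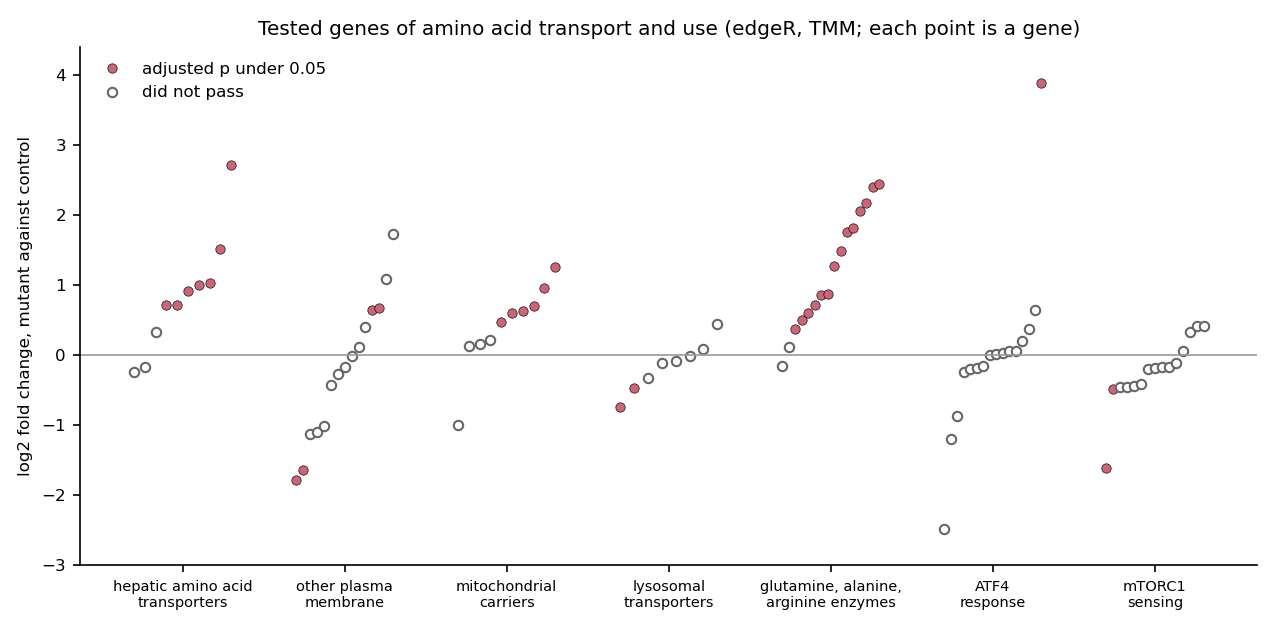
Log2 fold change (edgeR, TMM) of every tested gene in the transporter set and 6 related lists, with filled points for an adjusted p under 0.05. Filled are 7 of the 10 transporters, 6 of 10 mitochondrial carriers and 14 of 16 enzymes, and all of these lie above 0. Asns is the single filled point of the ATF4 list. Of the other plasma membrane transporters 2 filled points lie above 0 and 2 below. The lysosomal and mTORC1 lists have 2 filled points each, all below 0. Over all tested genes 6.64% were called higher and 6.82% lower.

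By zone of the liver lobule, 10 of 14 periportal genes rose and 2 fell (median 1.52), and of 14 pericentral genes 4 rose, 0 fell and 10 did not pass (median -0.08), beside 6.64% and 6.82% of all genes. At library totals these counts were 9 and 3 for the periportal and 1 and 5 for the pericentral genes. In log2(TPM + 1) they were 9 and 3, and 1 and 9. Over all genes 2.05% rose and 31.6% fell at library totals, and 1.88% and 63.6% in log2(TPM + 1). With TMM and 1 library left out, 9 periportal genes and 2 to 4 pericentral genes rose. Control replicates 2 and 3 and mutant replicates 1 and 2 each gave 2 pericentral genes when left out. Summed pericentral genes were 12058 to 13933 CPM in the controls and 16842 to 19666 CPM in the mutants, and their highest library was mutant replicate 2. Most of this sum was Cyp2e1, with 9629, 8316 and 7848 CPM in the controls and 11923, 14534 and 11423 CPM in the mutants. Its highest library was also mutant replicate 2, so the sum mainly follows this gene. In TPM the pericentral sums overlapped (10795 to 12277 in the controls and 10102 to 11042 in the mutants). Sds, Gls2, Cps1, Ass1, Asl and Arg1 of the periportal genes, all called higher, are also in the list of enzymes above. Glul and Oat of the pericentral genes are in it too, so these lists are not independent. Whether zonation has a part in the transporters' differences was not tested.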

How the data were processed

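Liver poly(A) RNA of 3 control and 3 mutant libraries was sequenced as paired reads of 150 bases, per the labels' protocols, and processed with cutadapt and STAR on mm10, per the submitters' processing notes. Program versions, the quantifier and the strandedness are unstated in the labels. The authors deposited a table of estimated counts and a table of TPM. The deposited estimated counts equal TPM times a gene factor and a library factor (largest deviation 5.72e-10 over 10983 genes), so they only approximate read numbers. Totals of 35847386 to 43162557 limit the precision of scarce genes such as Slc7a5.

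Estimated counts were rounded, and the groups were compared in edgeR 4.0.16 under R 4.3.3 (genes kept by filterByExpr, TMM, quasi-likelihood F-test on group, Benjamini-Hochberg over 14286 genes, called at 0.05). Standard errors come from the F statistic. TPM were tested with limma 3.58.1 on log2(TPM + 1). Alternatives are given in the closing section, DESeq2 1.42.0 among them. Tested on simulated data with 200 changed among 14041 genes of this comparison, the procedure recovered 71.6% of 2-fold and 93.3% of 4-fold changes, with 8 false among 174 calls. The simulation held no shift in composition between groups, took its spread from the trend over genes and changed only genes above a minimum count. In the data 1923 genes were called, so these rates need not hold there. Coordinates are from GENCODE mouse release 21 (mm10), in which 99.5% of identifiers were found. No 2 libraries were near-duplicates (chi-square of at least 47.7 per gene). The members and gene lists were chosen with earlier results of these data known. Named were all members, Rxra, a fixed set of partner and related transporters, up to 4 called genes of smallest p per list, and up to 3 genes nearest in pattern to the 3 most abundant members. A part of these is printed, and Atf4 and Arg1 were added after their values were seen.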

Additional observations from a re-analysis of the deposited data

How the results depend on the processing

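RLE size factors, no filter, a CPM filter, robust quasi-likelihood and DESeq2 left all 7 transporters called higher. All genes called numbered 1923, but 4801 at library totals, 7579 in limma on log2(TPM + 1), 7526 with a pseudocount of 0.1 and 6581 without a filter, and 882 to 1514 when 1 library was left out (for control replicates 1, 2 and 3 it was 886, 956 and 1018, for mutant replicate 1 882). Transporters changed numbered 4, 4 and 3 in these limma fits (3, 3 and 2 higher, 1 lower), against 7. Slc3a2 alone (1 gene) fell at library totals and at totals without the major urinary protein genes. The members' median log2 fold change was 0.42 at library totals, 0.60 at totals without those genes, and 0.29, 0.29 and 0.20 in limma. Leaving out a library left 6 or 7 transporters called. In the wider lists 37 genes were called, 61 and 60 in the filtered limma fits, and 21 to 27 on leaving out a library (24, 22 and 21 for control replicates 1, 2 and 3, 22, 27 and 24 for the mutants). Of the 37, 29 were higher and 8 lower, against 17 and 30 at library totals, 20 and 19 without major urinary protein genes, and 15 and 46 in log2(TPM + 1). The shares of all genes under these 3 were 2.05% and 31.6%, 2.82% and 13.7%, and 1.88% and 63.6%.

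Signs changed for values that had not passed. Slc3a1 was -0.073 at library totals and -0.25, -0.26 and -0.25 in limma, Rxra -0.20 in each limma fit, and Slc7a5 0.011 without control replicate 3 and 0.045 without mutant replicate 2. Slc7a6 was -1.29 without mutant replicate 2 and up to 2.29 when another library was left out. Slc25a44 was -0.23 at library totals, -0.048 at totals without major urinary protein genes and -0.41, -0.43 and -0.41 in limma, and Rgl3 -0.20, -0.0096, -0.36, -0.39 and -0.36. Selenos, which had passed, was -0.18 in each limma fit. Library totals and TPM differ from TMM-scaled counts only by gene and library factors. Apart from the pseudocount, they therefore shift the log2 fold changes of all genes nearly alike. Why signs changed on leaving out a library was not tested. Of the 6 ratios, 2 separated the groups with TPM + 1, and 1 to 4 on leaving out a library. The log2 ratio of Slc7a5 to Slc3a2 turned from 0.048 to -0.13 without control replicate 2, -0.091 without mutant replicate 1 and -0.15 without mutant replicate 3, and reached 0.39 without mutant replicate 2. That of Slc38a4 to Slc38a3 turned from -0.0027 to 0.062 without control replicate 1 and 0.080 without mutant replicate 2, and was as low as -0.059 without mutant replicate 3.

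With the replicate number as a replicate block, 1558 genes and all 7 transporters were called. Deviations of same-numbered libraries from their group means had correlations of 0.0167, -0.0032 and 0.0634, and not every library correlated best with its own number. With 3 libraries per group, these values cannot decide whether the numbers pair the samples. Slc7a5 rests on 39.4 to 113 counts per library, and its interval bounds what could be seen (log2 fold change -0.99 to 0.65).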
